A study of Mus musculus with 24 samples.

Results

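STAU2 belongs to the Staufen family of proteins, which bind double-stranded RNA. In the developing cortex it is known for carrying mRNAs in ribonucleoprotein particles, for unequal inheritance of those mRNAs when radial glia divide, and for transport of mRNA into the dendrites of neurons. Staufen proteins bind paired stretches of RNA, which can lie in the 3′ untranslated region (3′ UTR) as well as in the coding sequence (CDS). The comparison described here sets STAU2-associated RNA near the end of cortical neurogenesis (embryonic day E17.5), when the cortex holds many neurons, against that near its start (E11.5), when it consists largely of dividing progenitors.

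The material was mouse embryonic cortex, and the groups used were STAU2 RIP at E17.5 (3 libraries), input at E17.5 (3 libraries), STAU2 RIP at E11.5 (3 libraries) and input at E11.5 (3 libraries), 12 of the 24 libraries of the series. RIP stands for RNA immunoprecipitation: RNA held by a protein is pulled down with an antibody, here a mouse monoclonal against STAU2, then sequenced next to RNA of the lysate before the pull-down (input). Each biological replicate was the cortices of a whole litter, pooled; strain, sex and genotype were not stated, and no treatment or genetic change is listed for any group. The E13.5 and E15.5 lists were read only to see on which days between a gene was listed. Below, "only" at E17.5 or at E11.5 is said with regard to these days, and such genes may be listed between them.

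Members were protein-coding genes of GENCODE with an exon that shared at least 1 bp with a deposited peak on the same strand. Of 21924 protein-coding genes, 2259 had such a peak only at E17.5 (10.3% of all), 1279 only at E11.5 (5.83%) and 713 on both days (3.25%), 4251 genes in all, out of 6609 with an exonic peak on any of the 4 days. A peak here is a region the authors listed at a q-value of at most 0.01; the score, signal, p and q of a peak are the authors' own. Ranks below order the peaks of a day by p, rank 1 being the lowest. The authors deposited 1 list per day and strand for all 6 libraries of that day, so there are no replicate values: every count below is a count of genes or peaks with no spread between animals, no test was made between the days, and intervals (exact Clopper-Pearson, 95%) cover counting error only. The sequencing depth is unknown, and a difference between the days includes any difference in depth or preparation. A gene without a peak may still be expressed or bound, and since no expression levels were used here, fewer cells of a type and less RNA per cell cannot be told apart, nor can the labelled tissue be checked against its markers' levels.

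The lists themselves were of like length. The E17.5 list held 6341 peaks, 36.4% of 17441 candidate regions, and the E11.5 list held 6530 peaks, 21.9% of 29797 candidates. By strand these were 3704 plus and 2637 minus peaks at E17.5, and 3271 plus and 3259 minus peaks at E11.5. Near the end of the lists the deposited p was higher at E17.5 than at E11.5, so the same q limit let in weaker p at E17.5. Median peak width was 83 bp at E17.5 and 82 bp at E11.5. Yet 4604 peaks lay in exons of protein-coding genes at E17.5, against 3216 at E11.5. The 1 bp rule rarely decided membership: 18 of the 2259 genes listed only at E17.5 and 26 of the 1279 listed only at E11.5 owed their place to at most 10 bp of exon, and just outside the rule 4 further genes at E17.5 and 6 at E11.5 had a peak that stopped within 10 bp of an exon.

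The peaks below, which lie wholly in coding sequence, show what was compared. Sequences are printed as RNA-sense DNA letters from GENCODE transcripts on GRCm38 (mm10), and capitals mark bases that are paired in the minimum free energy structure that RNAfold gave for the peak alone. Fezf2, a transcription factor that specifies subcortical projection neurons, had its strongest peak at a different place of the same coding sequence on each day, at chr14:12343688-12343755 (minus strand) at E17.5 and at chr14:12344502-12344680 at E11.5. A weaker E11.5 peak of Fezf2 overlapped the E17.5 peak.
Fezf2 at E17.5: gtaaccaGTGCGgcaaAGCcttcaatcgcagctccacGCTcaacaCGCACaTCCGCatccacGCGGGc
Fezf2 at E11.5: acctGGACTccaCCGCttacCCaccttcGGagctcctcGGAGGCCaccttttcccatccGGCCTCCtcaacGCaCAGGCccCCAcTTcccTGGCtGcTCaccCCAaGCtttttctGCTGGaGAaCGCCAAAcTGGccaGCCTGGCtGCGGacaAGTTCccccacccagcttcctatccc
In the E17.5 peak 26 of 68 bases were paired (-15.2 kcal/mol), and in the E11.5 peak 84 of 179 (-46.8 kcal/mol).

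Polr2a, the largest subunit of RNA polymerase II, also had CDS peaks on both days, at chr11:69734537-69734751 (minus strand, rank 113 at E17.5) and chr11:69735299-69735386 (rank 271 at E11.5). They lie in the repetitive stretch that codes for the protein's C-terminal tail. The E11.5 peak was shared in full by a second, weaker E17.5 peak of rank 5393 at chr11:69734879-69735501.
Polr2a at E17.5: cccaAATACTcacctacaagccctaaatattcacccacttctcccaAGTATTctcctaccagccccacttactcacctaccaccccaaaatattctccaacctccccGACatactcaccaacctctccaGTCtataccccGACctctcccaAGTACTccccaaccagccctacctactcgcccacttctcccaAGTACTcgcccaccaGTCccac
Polr2a at E11.5: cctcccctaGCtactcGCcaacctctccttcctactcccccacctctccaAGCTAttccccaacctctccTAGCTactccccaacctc
Both were little paired by this prediction, 36 of 215 bases (-4.6 kcal/mol) at E17.5 and 14 of 88 bases (-2.9 kcal/mol) at E11.5, so a listed peak need not be a strongly folded piece on its own.

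Uqcrq, a small subunit of respiratory complex III, shows a peak that stayed in place. The E17.5 peak at chr11:53430594-53430643 (minus strand, rank 3131) lay inside the E11.5 peak at chr11:53430561-53430643 (rank 202). Here capitals mark the 50 bases that both days shared.
Uqcrq at E17.5: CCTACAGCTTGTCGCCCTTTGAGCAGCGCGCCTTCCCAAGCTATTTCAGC
Uqcrq at E11.5: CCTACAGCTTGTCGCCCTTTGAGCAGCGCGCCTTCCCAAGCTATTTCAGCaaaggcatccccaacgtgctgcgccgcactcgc

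Peaks of genes listed at just 1 of E17.5 and E11.5 complete the set, again with paired bases in capitals. Dst, which codes for dystonin, a linker of cytoskeletal filaments, was listed only at E17.5, and its strongest peak lay in the CDS at chr1:34268343-34268398 (plus strand, rank 1607). Marcksl1, a MARCKS-like regulator of actin at the membrane, Satb1, a chromatin organiser, and Tcf7l2, a transcription factor of the Wnt pathway, were listed only at E11.5 with strong CDS peaks, at chr4:129514721-129514986 (plus strand, rank 50), chr17:51740135-51740184 (minus strand, rank 17) and chr19:55908450-55908502 (plus strand, rank 45).
Dst at E17.5: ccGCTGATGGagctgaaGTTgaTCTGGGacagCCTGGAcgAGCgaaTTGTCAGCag
Marcksl1 at E11.5: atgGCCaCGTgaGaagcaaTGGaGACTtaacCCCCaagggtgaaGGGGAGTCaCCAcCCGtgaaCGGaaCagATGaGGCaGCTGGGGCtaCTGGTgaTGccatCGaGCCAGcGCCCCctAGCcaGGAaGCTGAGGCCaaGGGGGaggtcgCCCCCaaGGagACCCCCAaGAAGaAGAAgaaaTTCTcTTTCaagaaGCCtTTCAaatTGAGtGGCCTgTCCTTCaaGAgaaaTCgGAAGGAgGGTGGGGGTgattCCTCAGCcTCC
Satb1 at E11.5: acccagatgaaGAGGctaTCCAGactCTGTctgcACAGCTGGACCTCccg
Tcf7l2 at E11.5: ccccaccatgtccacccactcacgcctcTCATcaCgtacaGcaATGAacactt
Paired bases made up 60.7% of the Dst peak, 63.9% of the Marcksl1 peak, 52% of the Satb1 peak and 18.9% of the Tcf7l2 peak. On the days between, Dst was also listed at E13.5 and E15.5, Marcksl1 at E15.5 and Tcf7l2 at E13.5, and Satb1 on neither.

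Dnaja1, a co-chaperone, and Tubb2b, a β-tubulin of young neurons, had a 3′ UTR peak at E17.5 and a CDS peak at E11.5, while Ppp1ca, a catalytic subunit of protein phosphatase 1, had its CDS peak at E17.5 and its 3′ UTR peak at E11.5. The CDS peaks of Dnaja1, Tubb2b and Ppp1ca, shown because the part of the transcript differs between the days, lay at chr4:40727974-40728117 (plus strand), chr13:34128085-34128154 (minus strand) and chr19:4194539-4194682 (plus strand).
Ppp1ca at E17.5: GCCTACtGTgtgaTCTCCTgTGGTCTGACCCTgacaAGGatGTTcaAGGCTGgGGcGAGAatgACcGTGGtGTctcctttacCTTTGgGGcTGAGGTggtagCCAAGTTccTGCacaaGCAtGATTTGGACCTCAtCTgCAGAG
Dnaja1 at E11.5: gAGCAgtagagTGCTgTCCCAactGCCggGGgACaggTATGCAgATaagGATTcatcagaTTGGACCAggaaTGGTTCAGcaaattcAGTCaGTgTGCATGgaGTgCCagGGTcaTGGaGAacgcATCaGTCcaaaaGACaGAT
Tubb2b at E11.5: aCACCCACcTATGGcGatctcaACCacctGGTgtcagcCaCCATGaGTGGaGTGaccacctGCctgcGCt
Predicted pairing was 68.1% of bases for Ppp1ca, 58.3% for Dnaja1 and 51.4% for Tubb2b.

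The gene sets of the 2 days overlapped in part. Genes on both days were 24% of the 2972 genes listed at E17.5 and 35.8% of the 1992 listed at E11.5. Genes listed on both days were mostly listed between them as well: 587 of 713 (82.3%) at E15.5 and 437 (61.3%) at E13.5, with 78 (10.9%) on neither. Of the genes listed only at E17.5, 1278 of 2259 (56.6%) were listed at E15.5 and 724 (32%) at E13.5, and 777 (34.4%) on neither day. Of those listed only at E11.5, 636 of 1279 (49.7%) were listed at E15.5 and 415 (32.4%) at E13.5, and 522 (40.8%) on neither. Over all 21924 protein-coding genes, 4358 were listed at E15.5, the most of the 4 days, and 2578 at E13.5. Of the genes only at E11.5, 342 (26.7%) were listed at E15.5 and not at E13.5, and 121 (9.46%) at E13.5 and not at E15.5. What part the length of the E15.5 list has in this was not tested.

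**Figure D1:**
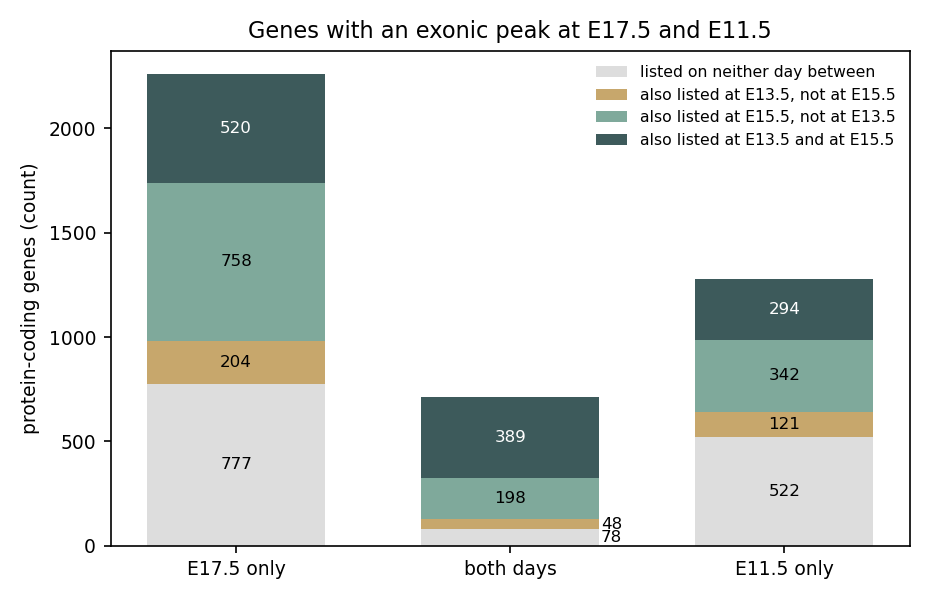
Number of protein-coding genes (vertical axis) with an exonic peak only at E17.5, on both days and only at E11.5, each bar split by listing at E13.5 and E15.5. The neither-day share is smallest for genes on both days, 78 of 713, against 777 of 2259 only at E17.5 and 522 of 1279 only at E11.5.

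Most genes rested on a single peak. Of the genes listed only at E17.5, 1461 (64.7%) had 1 exonic peak and 276 (12.2%) had 3 or more; of those listed only at E11.5, 871 (68.1%) had 1 and 158 (12.4%) had 3 or more. Genes on both days had 1 peak in 404 cases (56.7%) at E17.5 and in 427 (59.9%) at E11.5. The strongest peak, meaning the lowest deposited p, lay in the stronger 50% of its day's list for 61.3% of genes only at E17.5 and 64.4% of genes on both days at E17.5, and for 55% of genes only at E11.5 and 60.9% of genes on both days at E11.5. Its median width was 85 bp for genes only at E17.5 and 76 bp for genes only at E11.5; for genes on both days it was 101 bp at E17.5 and 92 bp at E11.5. A same-strand intronic peak on the other day was present for 57 genes (2.52%) listed only at E17.5 and for 23 (1.8%) listed only at E11.5.

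The genes of the 2 days differed in build. On the longest coding isoform the median 3′ UTR was 708 nt for genes only at E17.5 and 1406 nt for genes only at E11.5, beside 892 nt for genes on both days and 734 nt over all protein-coding genes. The median CDS ran the other way, 1443 nt for genes only at E17.5 and 1275 nt for genes only at E11.5, with 1173 nt over all. Median gene span was 20868 bp for genes only at E17.5 and 31190 bp for genes only at E11.5. Listing went with gene length. Among the 25% of genes with the most exonic sequence (5479 genes), 13.6% were listed only at E17.5, 10.2% only at E11.5 and 4.51% on both days. Among the 25% with the least (5481 genes), 248 genes were listed only at E17.5, 119 only at E11.5 and 87 on both days.

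Among genes listed only at E17.5, those with the lowest p included Plagl1, an imprinted zinc-finger transcription factor, whose 3′ UTR peak at chr10:13131362-13131486 ranked 1 of the day's list, with 3 exonic peaks. Plagl1 also had a same-strand intronic peak at E11.5, as did Dst. Rraga, a Rag GTPase of amino-acid sensing by mTORC1, had a 3′ UTR peak at chr4:86577154-86577247 of rank 3. Xrcc6, the Ku70 subunit of DNA end joining, had a CDS peak at chr15:82035674-82035730 of rank 10. Ppp3ca, the catalytic subunit of the phosphatase calcineurin, had a peak at chr3:136937474-136937552 of rank 13, in a 3′ UTR by an alternative isoform and in an intron of the longest. Their widths, in the order named, were 125, 94, 57 and 79 bp and their deposited signals 53.5, 18.9, 37.3 and 16.7, around the medians of 85 bp and 23.4 for genes only at E17.5. Pi4ka, a phosphatidylinositol 4-kinase, and Serinc1 followed with 3′ UTR peaks of rank 18 and 19, and Fam124a, Leprot and Sh3glb2, which codes for endophilin B2, had 3′ UTR peaks of rank 4, 8 and 16. Of the rest of these 12 genes, Nfxl1 was touched by a peak of 1364 bp centred in an intron, Fahd2a had a 5′ UTR peak and Adam15 a peak in an exon of a noncoding isoform. Shank1, a scaffold of the postsynaptic density, and Dst had the most exonic peaks, 8 each, followed by Fam219a with 7.

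Among genes listed only at E11.5, 7 of the 12 with the lowest p had the strongest peak in the CDS, against 1 of the 12, Xrcc6, only at E17.5. Zfand3, a zinc-finger protein, had a CDS peak at chr17:30135346-30135503 of rank 2, the Satb1 and Tcf7l2 peaks printed above ranked 17 and 45, and R3hdm1 had a CDS peak of rank 41 and 8 exonic peaks in all. H3f3a, which codes for histone H3.3, had a CDS peak of rank 30 and a deposited signal of 1190; near-identical copies of this gene exist, so reads may be shared among them. Upf2, a factor of nonsense-mediated decay, ranked 4 with a peak that touched an exon but was centred in an intron. Cdc25b, a phosphatase that starts mitosis, had a 5′ UTR peak of rank 54 at chr2:131187015-131187092. Ccdc50, Ttc32 and Trmt112 had peaks of rank 5, 14 and 25 called 3′ UTR, that of Ttc32 by an isoform other than the longest, and Qser1 a CDS peak of rank 55. Gnaq, the α subunit of the Gq protein, had 13 exonic peaks, Hipk2, a nuclear kinase, had 10, and Ptn, which codes for the growth factor pleiotrophin, had 9.

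The place of the strongest peak in the transcript differed between the days. Each peak was placed by its midpoint, taking 3′ UTR before CDS where isoforms differ; "intron" stands for a peak that touches an exon while its midpoint does not. The 3′ UTR held 1304 of 2259 strongest peaks (57.7%, 55.7 to 59.8) of genes only at E17.5, and 561 of 1279 (43.9%, 41.1 to 46.6) of genes only at E11.5. The CDS held 476 (21.1%, 19.4 to 22.8) of genes only at E17.5 and 390 (30.5%, 28 to 33.1) of genes only at E11.5. Intron midpoints made up 15.3% for genes only at E17.5 and 17.7% for genes only at E11.5, and 5′ UTR peaks 1.73% for genes only at E17.5 and 3.13% for genes only at E11.5.

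In the 713 genes on both days the 3′ UTR held 457 strongest peaks (64.1%, 60.5 to 67.6) at E17.5 and 319 (44.7%, 41 to 48.5) at E11.5, and the CDS held 138 (19.4%, 16.5 to 22.4) at E17.5 and 231 (32.4%, 29 to 36) at E11.5. Of all 3′ UTR and CDS peaks, the 3′ UTR took 74.1% (72.3 to 75.9) over all genes at E17.5 and 58.6% (56.1 to 61.1) at E11.5. The level of these shares depended on the isoform used: on the longest coding isoform they were 65.2% at E17.5 and 47.2% at E11.5.

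**Figure D2:**
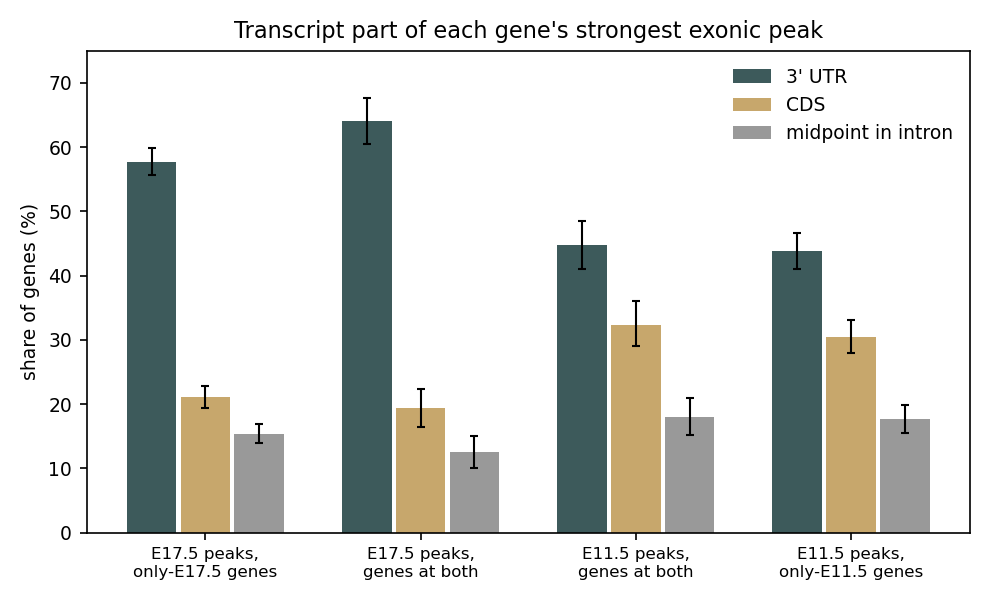
Share of genes (vertical axis, %) whose strongest exonic peak has its midpoint in the 3′ UTR, CDS or an intron, for E17.5 peaks of genes only at E17.5 and on both days, and for E11.5 peaks of genes on both days and only at E11.5; bars with exact 95% intervals. The E17.5 groups have 57.7% and 64.1% in the 3′ UTR, and the E11.5 groups 44.7% and 43.9%.

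Median GC content of 3′ UTR peaks was 50% for genes only at E17.5 (n = 1252 peaks read) and 46.8% for genes only at E11.5 (n = 546), beside 47.4% in the whole 3′ UTRs of genes only at E17.5 and 42.3% in those of genes only at E11.5. By these medians, peaks had more G and C than the whole 3′ UTR on both days. Whole-part values are those of the longest coding isoform. On it, 1068 of the 1304 strongest peaks called 3′ UTR only at E17.5 and 430 of the 561 only at E11.5 were 3′ UTR. The remaining peaks were thus set against sequence that does not hold them. Median GC content of CDS peaks was 55.1% for genes only at E17.5 (n = 422) and 52% for genes only at E11.5 (n = 362), beside whole-CDS medians of 55.8% and 51.3%. For genes on both days the 3′ UTR peaks had 47.1% at E17.5 and 49.8% at E11.5 and the CDS peaks 53.6% at E17.5 and 55.1% at E11.5, both in the other order. Predicted folding energy had medians of -20.4 kcal/mol per 100 nt in 3′ UTR peaks only at E17.5 and -16.5 only at E11.5, and of -18.2 at E17.5 and -17.6 at E11.5 for genes on both days. In CDS peaks they were -22.9 only at E17.5 and -18.5 only at E11.5, and -19.8 at E17.5 and -20.3 at E11.5 for genes on both days; RNAfold energies move with GC content.

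For genes on both days, the strongest peaks lay in the 3′ UTR, CDS or 5′ UTR on each day for 486 of 713 (68.2%), and in 346 of these (71.2%, 66.9 to 75.2) the part was the same. Of 474 genes with strongest peaks in 3′ UTR or CDS on each day, 260 had them in the 3′ UTR on both days and 85 in the CDS on both. In 105 (22.2%, 18.5 to 26.2) the peak was in the 3′ UTR at E17.5 and in the CDS at E11.5, and in 24 (5.06%, 3.27 to 7.44) it was in the CDS at E17.5 and in the 3′ UTR at E11.5. Thus 105 of 129 genes with a different part (81.4%, 73.6 to 87.7) had the 3′ UTR peak at E17.5. On the longest coding isoform the counts were 113 and 24.

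**Figure D3:**
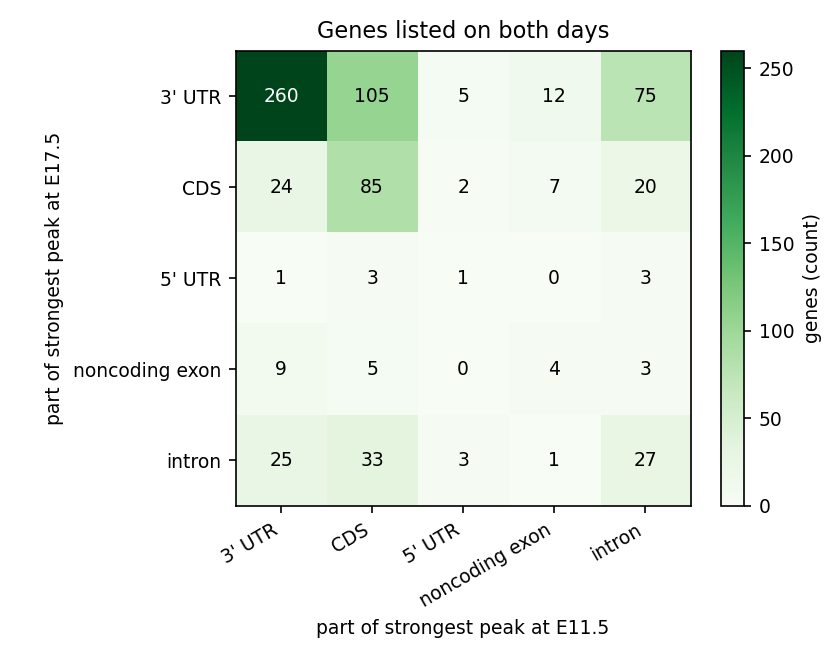
Number of genes listed on both days by the transcript part of the strongest peak at E17.5 (rows) and at E11.5 (columns). The cell for 3′ UTR at E17.5 and CDS at E11.5 holds 105 genes and the mirrored cell 24.

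By midpoint class, most of the 105 genes had no weaker peak in the other part. Of these 105 genes, 15 (14.3%) also had a weaker CDS peak at E17.5 and 25 (23.8%) a weaker 3′ UTR peak at E11.5. Among the 24 genes of the opposite kind, 12 (50%) also had a weaker 3′ UTR peak at E17.5 and 4 (16.7%) a weaker CDS peak at E11.5. Midpoint classes leave out peaks that reach into a part but are centred elsewhere. Some exonic peaks of the 2 days overlapped in 25 of the 105 genes (23.8%) and in 9 of the 24 (37.5%). In the 259 genes with 1 exonic peak on each day there was no choice to make, and 38 of 177 with peaks in 3′ UTR or CDS (21.5%, 15.7 to 28.3) had the 3′ UTR peak at E17.5 and the CDS peak at E11.5, against 7 (3.95%, 1.6 to 7.98) the other way.

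The 8 best-ranked genes with a 3′ UTR peak at E17.5 and a CDS peak at E11.5 were Dnaja1, Srrm2, Eif3a, Dazap1, Tubb2b, Ppp1cc, Maz and Dvl3. Dnaja1 had its E17.5 peak at chr4:40733335-40733415 (rank 615) and its E11.5 peak 1118 nt upstream along the spliced transcript (rank 230). Eif3a, a core subunit of translation initiation factor 3, had them 3133 nt apart, with rank 304 at E17.5 and 986 at E11.5. Dazap1, an RNA-binding protein, had them 792 nt apart (rank 391 at E17.5 and 913 at E11.5). Maz, a zinc-finger transcription factor, had them 1082 nt apart (rank 972 at E17.5 and 970 at E11.5). A weaker E17.5 peak of Dazap1, centred in an intron (rank 1164), covered its E11.5 CDS peak in full, sharing 117 bases. Dazap1 also had a weaker 3′ UTR peak at E11.5. Weaker peaks of the days shared 484 bases in Maz, centred in an intron, and 52 bases in Dvl3. For Srrm2, a protein of the spliceosome, Ppp1cc, another catalytic subunit of protein phosphatase 1, and Dvl3, a Wnt signal transducer, the E17.5 peak is 3′ UTR only by an isoform other than the longest, so their change of part depends on the gene model.

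Tubb2b had 1 peak on each day, at chr13:34127305-34127394 in the 3′ UTR at E17.5 (deposited signal 8990, rank 1076) and 770 nt upstream in the CDS at E11.5 (signal 161, rank 591). The scaling of the signal is not given, so the 2 signals are printed and not compared. Its near-identical neighbour Tubb2a had the same arrangement, 637 nt apart, with rank 2200 at E17.5 and 5432 at E11.5; reads in the CDS could be split between the pair. Of the 8 genes of the neuronal cytoskeleton and motors list on both days, 6 had the 3′ UTR peak at E17.5 and the CDS peak at E11.5, against 105 of 713 over all genes on both days. Beside the tubulins these were Map1b, a microtubule-associated protein, Stmn4, a stathmin, Crmp1, a collapsin response mediator, and Kif3b, a kinesin motor, and all 6 kept this on the longest isoform. Map1b had 1 exonic peak at E17.5 and 7 at E11.5. Ina, an intermediate filament protein, and Pafah1b1, the dynein regulator LIS1, had 3′ UTR peaks on both days.

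The best-ranked genes of the opposite kind, with the CDS peak at E17.5 and the 3′ UTR peak at E11.5, were Flna, Rexo1, Selenoh, Ppp1ca, Nop56, Gtf2ird1, Cnn3 and Hmgn5. Flna, the actin cross-linker filamin A, had 7 exonic peaks at E17.5, the strongest in the CDS at rank 1652. Its 1 peak at E11.5 lay in the 3′ UTR at chrX:74223634-74223842 with rank 56. A weaker E17.5 peak in the 3′ UTR (rank 3031) covered that E11.5 peak in full, sharing 209 bases. Ppp1ca had 1 peak on each day, of rank 1623 at E17.5 and 908 at E11.5, the E17.5 peak lying 540 nt upstream. Cnn3, a calponin, had its strongest peaks 359 nt apart, and Hmgn5, a nucleosome-binding protein, 767 nt apart. A weaker E17.5 3′ UTR peak of Cnn3 (rank 3708) shared 190 bases with its E11.5 peak. Weaker 3′ UTR peaks of Nop56 (rank 3628 at E17.5 and 3888 at E11.5) shared 243 bases. Selenoh, Nop56 and Gtf2ird1 did not keep this on the longest isoform. Huwe1 and Ube2b, enzymes of ubiquitin transfer, were of the same kind, with rank 313 and 283 at E17.5 and 4096 and 6412 at E11.5.

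Few strongest peaks stayed at the same bases. Some exonic peak of E17.5 overlapped some exonic peak of E11.5 in 273 of 713 genes (38.3%, 34.7 to 42), and the strongest peaks overlapped in 154 (21.6%, 18.6 to 24.8). Even with the 3′ UTR on both days, the strongest peaks overlapped in 90 of 260 genes (34.6%), and with the CDS on both days in 27 of 85 (31.8%). Genes with 1 peak on each day overlapped in 66 of 259 cases (25.5%), and genes with more peaks in 207 of 454 (45.6%).

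Along the spliced longest isoform, which held both midpoints for 427 genes, the strongest peaks lay a median of 410 nt apart (quartiles 104 and 1197.5). The E17.5 peak lay nearer the 3′ end in 276 genes and nearer the 5′ end in 149. The median position of the strongest peak was 77.4% of the way along the transcript at E17.5 and 60.4% at E11.5. With the 3′ UTR on both days the median distance was 260.5 nt and the E17.5 peak was the more 3′ in 137 of 222 genes; with the CDS on both days it was 293 nt, with 42 genes toward the 3′ end at E17.5 and 40 toward the 5′ end. For genes with the 3′ UTR peak at E17.5 and the CDS peak at E11.5 the median distance was 1318 nt over 94 genes.

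**Figure D4:**
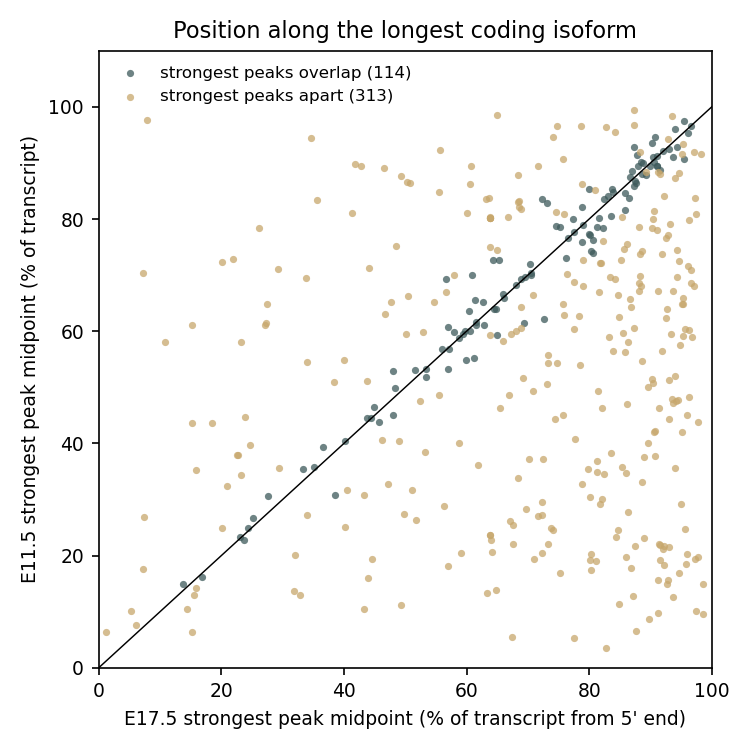
Midpoint of the strongest peak along the longest coding isoform (% of transcript length from the 5′ end) at E17.5 (horizontal axis) and at E11.5 (vertical axis), 1 point per gene, with the line of equal position. The 114 genes whose strongest peaks overlap follow the line, and the 313 others spread mostly below it, at E17.5 positions near the 3′ end.

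Among the genes whose peaks did overlap, Ypel3 had nearly the same interval on both days, chr7:126780327-126780449 at E17.5 (rank 116) and chr7:126780327-126780452 at E11.5 (rank 804), both in the 3′ UTR. Gsk3a, a kinase of Wnt and insulin signalling, had 3′ UTR peaks at chr7:25228335-25228583 at E17.5 (rank 7) and chr7:25228418-25228573 at E11.5 (rank 239), with 156 shared bases. Atf4, a transcription factor that answers translational stress, had wide CDS peaks that shared 415 bases, at chr15:80256653-80257144 at E17.5 (rank 340) and chr15:80256730-80257151 at E11.5 (rank 11). Gng3, a G protein γ subunit of neurons, shared 188 bases of its 3′ UTR peaks (rank 997 at E17.5 and 19 at E11.5), and Tnpo3, the nuclear import receptor of splicing factors, 124 (rank 75 at E17.5 and 1071 at E11.5). Slc25a23, a mitochondrial carrier, and Celf3, an RNA-binding protein of neurons, had overlapping peaks that were not the strongest on both days.

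The 10 genes with the best mean rank over both days were Gsk3a, Atf4, Polr2a, Slc25a23 and Celf3, whose peaks overlapped in part, and Dnaja1, Mdk, Celf2, Eif4g3 and Prpf39, whose peaks did not. Mdk, the growth factor midkine, had its strongest peak in the 3′ UTR at E17.5 (rank 170) and a peak centred in an intron at E11.5 (rank 108). Celf2, a splicing regulator, had a single peak, in the 3′ UTR, at E17.5 (rank 593) and 6 exonic peaks at E11.5, the strongest also in the 3′ UTR (rank 36) and 3301 nt upstream. Eif4g3, a translation initiation factor, and Prpf39, a splicing factor, had E17.5 peaks of rank 328 and 114 called 3′ UTR, and E11.5 peaks of rank 529 (centred in an intron) and 782 (3′ UTR, but CDS on the longest isoform).

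Gene lists were counted against the shares over all protein-coding genes, 10.3% only at E17.5, 5.83% only at E11.5 and 3.25% on both days. They were chosen with earlier results of these data known, and no test was made on them. Shares of genes of like exonic length stand beside them too, in the order only at E17.5, only at E11.5 and both days. Lists with a median of 5810 nt or more compare with the longest 25% of genes, 13.6%, 10.2% and 4.51%. Those from 3501 to 5808 nt compare with 13.4%, 6.79% and 3.89%. Those from 1968 to 3500 nt, such as the respiratory chain, compare with 9.72%, 4.16% and 3.03%. The list of the neuronal cytoskeleton and motors (50 genes, median exonic length 6492.5 nt) had 20 genes only at E17.5 (40%), 4 only at E11.5 (8%) and 8 on both days (16%). The E17.5 genes included Dbn1, which codes for the actin-binding protein drebrin (rank 42), Ank2, an ankyrin (rank 93), Cfl1, cofilin (rank 138), and the kinesins Kif1a (rank 217) and Kif5a (rank 736). Of these 20, 16 had the strongest peak in the 3′ UTR (11 by the longest isoform), and 2, Kif1a and Dpysl3, were listed on neither day between. The 4 genes only at E11.5 were Marcksl1, Map2, Sptan1 and Kif21a.

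The synapse list (57 genes, 7640 nt) had 20 genes only at E17.5 (35.1%), 4 only at E11.5 (7.02%) and 2 on both days (3.51%). Beside Ppp3ca, the E17.5 genes included Shank1 (rank 157), Snap25 of the fusion machinery (rank 753), the NMDA receptor subunits Grin1 (rank 816) and Grin2b (rank 855), and Syn1, synapsin I, with a CDS peak (rank 628); 17 of 20 had the strongest peak in the 3′ UTR (13 by the longest isoform). Vamp2, a vesicle SNARE, and Grik5, a kainate receptor subunit, were on both days. Axon guidance and adhesion (54 genes) had 11 only at E17.5 (20.4%), 2 only at E11.5 (3.7%) and 2 on both days (3.7%). All 11 E17.5 genes had 3′ UTR peaks (10 by the longest isoform), among them the plexins Plxnb1 (rank 1210), Plxna3 (rank 1343) and Plxna1 (rank 1749) and the semaphorin Sema4g (rank 1122). Ion channels (44 genes) had 9 only at E17.5 (20.5%), 1 only at E11.5 (2.27%) and 0 on both days; all 9 had 3′ UTR peaks (7 by the longest isoform), among them the calcium channel subunit Cacna2d2 (rank 540).

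The respiratory chain list (38 genes, 2166 nt) had 11 genes only at E17.5 (28.9%), 4 only at E11.5 (10.5%) and 1, Uqcrq, on both days (2.63%). Unlike the neuronal lists, it had 1 of 11 strongest peaks in the 3′ UTR, in Ndufs1 (rank 702), and 5 in the CDS, among them Ndufs3 of complex I (rank 182). The 3′ UTRs of this list are short, with a median of 202 nt. Ribosomal protein genes (47 genes), whose many copies make assignment uncertain, had 1 gene only at E17.5 (2.13%) and 5 only at E11.5 (10.6%), 4 of these with CDS peaks, and 37 had no exonic peak on any day.

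The lists of dividing cells and of signalling had larger shares only at E11.5 than only at E17.5. Cell cycle and spindle (53 genes, 4552 nt) had 5 genes only at E17.5 (9.43%), 12 only at E11.5 (22.6%) and 5 on both days (9.43%). The E11.5 genes included Cdc25b, Cenpe, a kinesin of the kinetochore, with a CDS peak (rank 106), Ccnd2, cyclin D2, with a 3′ UTR peak (rank 118), and Rb1, the retinoblastoma protein, with a CDS peak (rank 338). Mki67, the proliferation marker Ki-67, had CDS peaks on both days, of rank 5051 at E17.5 and 187 at E11.5. Notch, Wnt and Hedgehog signalling (48 genes, 5574.5 nt) had 6 only at E17.5 (12.5%), 12 only at E11.5 (25%) and 4 on both days (8.33%). Tcf7l2 (rank 45), Gsk3b (rank 213), the Wnt co-receptor Lrp6 (rank 452) and Gli3, the transcription factor of Hedgehog signalling (CDS, rank 783), were only at E11.5.

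RNA-binding proteins and decay factors (70 genes, 7280.5 nt) had 16 only at E17.5 (22.9%), 19 only at E11.5 (27.1%) and 16 on both days (22.9%). Listed only at E17.5 were the decay factors Smg5 (rank 289) and Smg1 (rank 394) and Rbfox3 (rank 422), the protein known as NeuN. So were Larp1 (rank 466), Eif4g1 with a CDS peak (rank 495) and Stau1, the other Staufen protein (rank 1813). Of these E17.5 genes, just Smg5 was listed on neither day between. Upf2, Ago2, the Argonaute of RNA silencing (rank 78), and Nova1 (rank 170) were listed only at E11.5. So were Ddx6 (rank 412) and Elavl1 (rank 416), with CDS peaks. Of these E11.5 genes, just Upf2 was listed on neither day between. Stau2 itself was listed on both days, with 1 exonic peak of rank 3992 at E17.5 and 1 of rank 631 at E11.5. Both were called 3′ UTR by an alternative isoform, while on the longest isoform the E17.5 midpoint was in an intron and the E11.5 midpoint in the CDS. Chromatin regulators (56 genes, 10590.5 nt) had the highest share on both days of the 19 lists, 14 (25%), with 12 only at E17.5 (21.4%) and 8 only at E11.5 (14.3%). Kmt2d, a histone methyltransferase, had CDS peaks of rank 4963 at E17.5 and 136 at E11.5. Ubiquitin and membrane trafficking (49 genes) had 10 only at E17.5, 11 only at E11.5 and 10 on both days, with Ap2a1 (rank 80) and Dnm1 (rank 127) of endocytosis at E17.5.

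Some related genes of the lists stood on different days and others on the same day; the examples were picked out after their values were seen, and no count over families was made. The 3 Rbfox splicing regulators, Rbfox1, Rbfox2 and Rbfox3, were listed only at E17.5, as were the plexins Plxna1, Plxna3, Plxna4, Plxnb1 and Plxnb2 and several calcium channel subunits, Cacna1e and Cacna1h among them. In the Celf family Celf4 and Celf5 were listed only at E17.5, Celf2 and Celf3 on both days and Celf1 only at E11.5. In the Elavl family Elavl3 was on both days, and Elavl1, Elavl2 and Elavl4 were only at E11.5. Notch2, Numbl and Apc2 were listed only at E17.5 and Notch1, Numb and Apc only at E11.5, with rank 2456, 2549 and 1185 at E17.5 and rank 6283, 5164 and 2704 at E11.5. Marcks (rank 1551) was listed only at E17.5 and Marcksl1 only at E11.5. Gsk3a was listed on both days and Gsk3b only at E11.5.

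**Figure D5:**
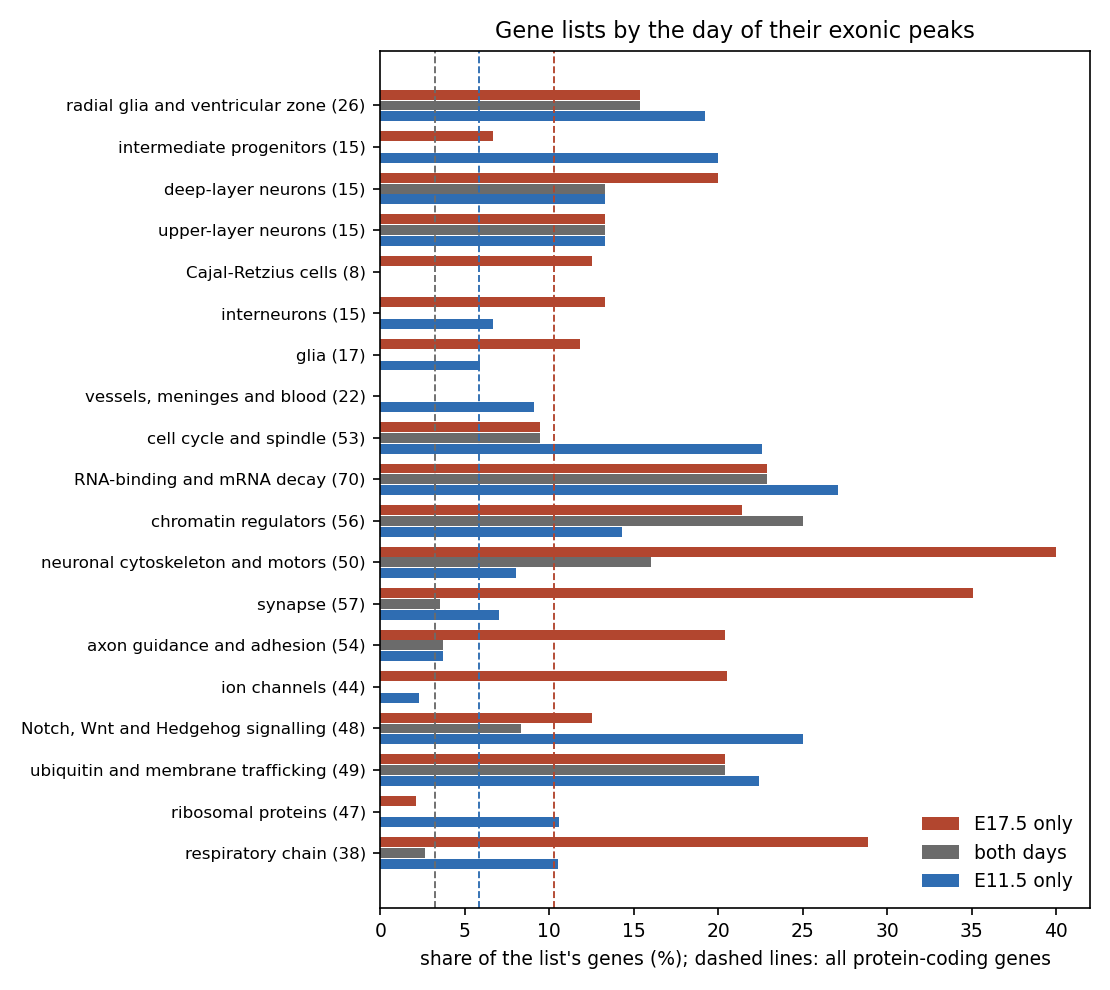
Share of each list's genes (horizontal axis, %; number of genes in brackets) with an exonic peak only at E17.5, on both days and only at E11.5; dashed lines give the shares over all protein-coding genes, 10.3%, 3.25% and 5.83%. Cytoskeleton (40%) and synapse (35.1%) extend farthest only at E17.5, and RNA-binding (27.1%) and Notch, Wnt and Hedgehog signalling (25%) only at E11.5.

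Cell type lists were small. Their shares stand beside 10.3% only at E17.5, 5.83% only at E11.5 and 3.25% on both days over all protein-coding genes. Radial glia and ventricular zone (26 genes) had 4 only at E17.5 (15.4%), 5 only at E11.5 (19.2%) and 4 on both days (15.4%). Fabp7, a fatty acid-binding protein of radial glia (CDS, rank 573), was at E17.5 and not at E11.5, and was also listed at E15.5. Gli3 and Hmga2 (rank 841) were at E11.5 and not at E17.5, both were also listed at E15.5, and Gli3 at E13.5 too. Transcription factors on both days included Nr2e1 (rank 64 at E17.5 and 4584 at E11.5) and Lhx2 (rank 252 at E17.5 and 969 at E11.5). The cadherin Cdh2 was on both days too. Intermediate progenitors (15 genes) had 1 only at E17.5 (6.67%), Gadd45g, and 3 only at E11.5 (20%), Neurog1, Neurog2 and Ccnd2. Deep-layer neurons (15 genes) had 3 only at E17.5 (20%), 2 only at E11.5 (13.3%) and 2 on both days (13.3%), Tbr1 and Fezf2. Upper-layer neurons (15 genes) had 2 of each kind (13.3% each), with Cux1 (rank 83) only at E11.5. The Cajal-Retzius list (8 genes) had 1 only at E17.5 (12.5%), Reln, and 6 with no exonic peak on any day. Reln, the secreted glycoprotein of these cells, was at E17.5 (rank 766) and not at E11.5, and was listed at E13.5 and E15.5 too.

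Markers of cells that cortical tissue could also hold were counted too. For interneurons and glia the shares only at E17.5 and only at E11.5 lay near those over all protein-coding genes. Interneurons (15 genes) had 2 only at E17.5 (13.3%), Gad1 and Lhx6, and 1 only at E11.5 (6.67%), Dlx2. Glia (17 genes) had 2 only at E17.5 (11.8%), among them Aldoc, and 1 only at E11.5 (5.88%), Mbp. Vessels, meninges and blood (22 genes) had 0 only at E17.5 and 2 only at E11.5 (9.09%), Col4a1 and Igf2, and 13 had no exonic peak on any day. What part a change in the cells of the tissue has in the listed genes was not tested.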

How the data were processed

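The authors deposited 8 peak lists, 1 per day and strand, in mm10 coordinates; Cufflinks 2.2.1, bedtools 2.17.0, TopHat and TopHat2 2.0.9 are named per the submitters' processing notes, while no source used here gives the peak caller, its test or its direction (RIP over input). A peak has a deposited score, a deposited signal of unstated scaling, and the authors' p-value and q-value. The number of candidate regions was recovered from the form of q. Read against gene strands, 94.9% of plus-list and 4.72% of minus-list peaks over 1 gene lay on plus genes at E17.5, and 96.8% and 4.51% at E11.5.

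Peaks were joined to GENCODE vM21 genes (GRCm38) in Python 3.11.15 with numpy 2.4.6, pandas 2.3.3, scipy 1.17.1 and matplotlib 3.10.9, by 1 bp or more of exon on the same strand over all isoforms; gene IDs with the same symbol at the same locus were merged. Classes go by the midpoint with 3′ UTR taken before CDS, then 5′ UTR, exons of noncoding isoforms and introns. Ranks run over both strands of a day by p. Peaks of up to 300 nt were folded alone with RNAfold 2.7.2. The assignment and the counts were run on simulated peaks that each lay inside a single transcript part. These were kept only where the class rule already gave that part, so recovery of the part was fixed in advance. Peaks centred in introns were not simulated. Named genes were the 12 with the lowest p and the 3 with the most peaks only on each day, the 10 best mean ranks on both days, the 8 best overlapping, the 8 best of each change of part, and up to 6 per list and kind; a few further list members are named beside them. Genes with predicted symbols (Gm, Rik) were counted, not named. Members and lists were chosen with earlier results of these data known. Alternatives are given in the closing section; restricting isoforms to type protein_coding, to genes with 1 peak on each day and to genes without Gm and Rik symbols was added after seeing the data. No genome sequence was used here, so peaks outside transcripts were not read. Some genes that the rule would name are not reported here.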

Additional observations from a re-analysis of the deposited data

How the results depend on the processing

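Of 74 recomputed values, 51 stayed within their limits and 23 did not. Keeping the stronger 50% of peaks left 284 genes on both days, with overlapping peaks in 31.3%. Of these genes, 39 had the 3′ UTR peak at E17.5 and CDS peak at E11.5, 11 were of the opposite kind and 150 had the same part. A q of at most 0.001 left 1 gene only at E17.5, 3 only at E11.5 and 0 on both, so that the order of the days turned round, at a handful of genes. The 3′ UTR share of 3′ UTR and CDS peaks was 68.7% at E17.5 and 52.6% at E11.5 with classes by any overlap, 67.4% and 50.4% with CDS before 3′ UTR, 65.2% and 47.2% on the longest isoform, and 68.8% and 52% with protein_coding isoforms only. Classes by any overlap gave 178 and 38 genes with a different part; 1 peak on each day gave 38 and 7, and 132 with the same part (345 before). Overlap was 33.4% when 50% of the shorter peak was required and 45.6% within 100 bp. The share of different-part genes with the 3′ UTR peak at E17.5 was between 78% and 84.4% throughout. No paired analysis was possible because the lists hold no value per replicate, and leaving out replicates was not run for the same reason. Limits are the unknown depth, the lack of a spread between animals, the missing direction of the peak test and the dependence of 3′ UTR and CDS calls on the gene model.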
